A study of Mus musculus with 4 samples.

Results

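The hedgehog genes described here are 6 genes found by symbol in the deposited gene tables: the ligands Shh and Ihh, the ligand-processing enzyme Hhat, the release protein Disp1, the receptor Ptch1 and the decoy receptor Hhip. They are 6 of the 32200 distinct gene symbols in the files, and all 6 had UMIs (unique molecular identifiers, each standing for 1 captured RNA molecule) in every library. The study captured single cells from the dissociated corpus epithelium of C57BL6/J wild-type mice aged 6 to 7 weeks. For every library the tissue was dissociated for 5 minutes at 37 degrees Celsius, and the compound Y27632 was used at 10 nM. There were 4 libraries: untreated mice that received PBS, mice 1 day after a single oral dose of 350 mg/kg L635 (the acute injury phase), mice 3 days after L635 that also received amphiregulin (AREG), and mice 3 days after L635 (the recovery phase). L635 is a compound that kills parietal cells, and AREG is a ligand of the EGF receptor. The dose and schedule of AREG and the number of mice behind a library are not stated in the labels. Each group is 1 library, so no test was run. Every interval below is a 95% interval for counting error only, which does not cover differences between mice.

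Hedgehog ligands are secreted proteins. Hhat attaches the palmitate they need for full activity, and Disp1 lets the lipid-bearing ligand leave the cell. On the receiving cell the ligand binds Ptch1 together with the coreceptors Boc, Cdon or Gas1, which frees Smo from repression by Ptch1 and lets the Gli transcription factors act. Ptch1, Hhip and Gli1 are themselves classical targets of the pathway, and Hhip binds ligand without signalling. In the gastric corpus Shh is best known as a product of acid-secreting parietal cells, Ihh as a ligand of the surface pit cells, and the responding cells are described mainly in the stroma.

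Called cells numbered 13897 in the untreated sample, 3926 at day 1, 12923 at day 3 with AREG and 7986 at day 3, and libraries shared at most 3 cell barcodes. After 3 clusters that were not epithelial were left out, 13847, 3740, 12916 and 7980 cells with 61580433, 38636379, 51896446 and 42050348 UMIs remained, in the same order. Levels are UMIs per 1000000 UMIs (CPM) summed over these cells. The 20 most abundant genes took 46.1% of the UMIs of the untreated library and 29.9% to 33.9% in the other 3. The median gene was 0.48 higher on the log2 scale at day 1 and 0.59 higher at day 3 than in untreated cells. Each difference from the untreated library is therefore given beside that median. In the cells kept as epithelial, so after non-epithelial clusters had been left out, the summed level of 7 fibroblast markers was 2.16 to 2.73 CPM, of 6 smooth muscle markers 1.5 to 3.64 CPM, of 4 mesothelial markers 9.40 to 23.0 CPM and of 6 endothelial markers 30.8 to 43.7 CPM. No cluster was named fibroblast-like or smooth muscle-like. The deposited files carry no cell annotation. Clusters were named from marker genes and carry the ending -like, as in pit-like.

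Shh was mainly a pit-like transcript in all 4 libraries. Over all epithelial cells it had 11.2 CPM in the untreated library (688 UMIs, interval 10.4 to 12.0), 21.2 CPM at day 1 (820 UMIs, 19.8 to 22.7), 18.0 CPM at day 3 with AREG (934 UMIs, 16.9 to 19.2) and 24.5 CPM at day 3 (1032 UMIs, 23.1 to 26.1). The untreated library was lowest and day 3 highest, and the interval of day 3 overlapped none of the others. Of these UMIs, pit-like cells held 85.2% in the untreated sample, 72.9% at day 1, 92.3% at day 3 with AREG and 95.7% at day 3. The day 1 share rests on the clustering: at resolution 0.5, in place of 1, nearly all day 1 pit-like cells lost that name and the share was 0.49%.

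**Figure D1:**
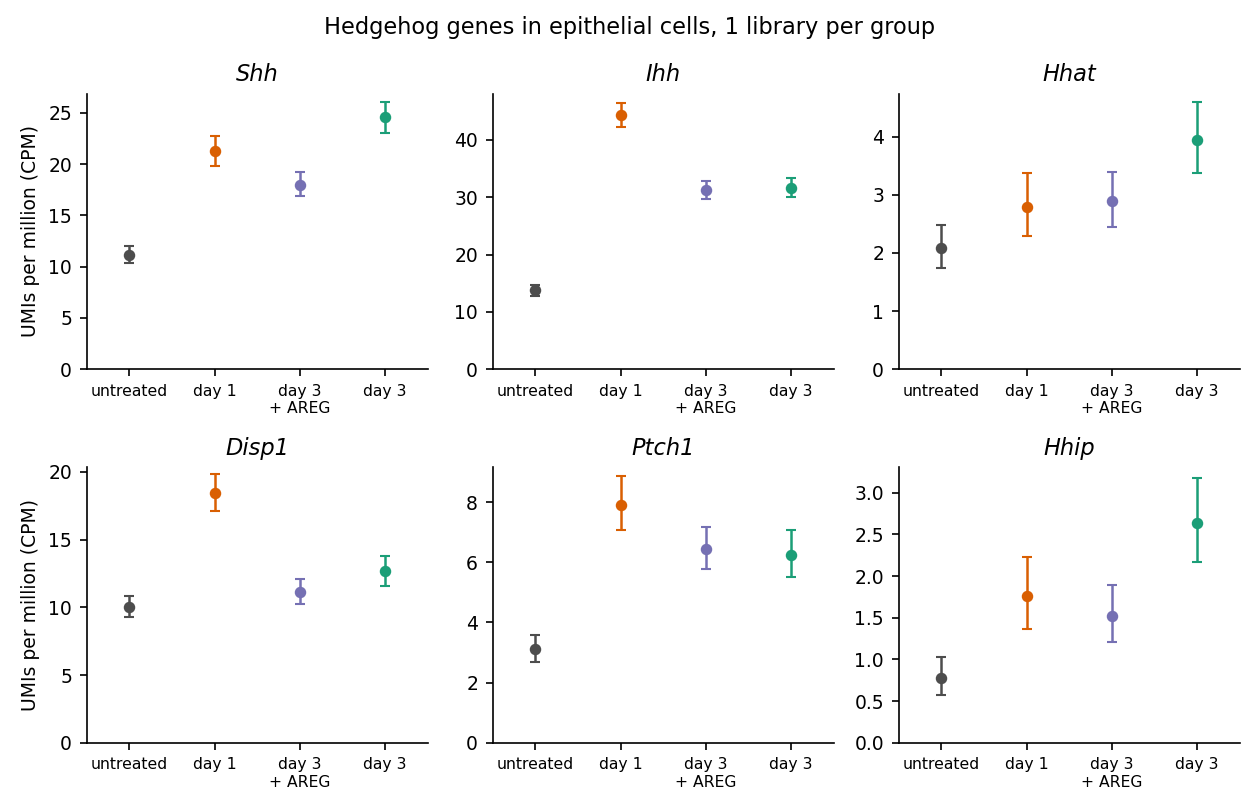
Level of each hedgehog gene in epithelial cells, in CPM (vertical axis, from 0, a different scale for each gene), in the untreated, day 1, day 3 with AREG and day 3 libraries (horizontal axis). Points are 1 library each and bars are exact Poisson 95% intervals for counting error; all 6 genes were lowest in the untreated library, Ihh, Disp1 and Ptch1 were highest at day 1, and Shh, Hhat and Hhip were highest at day 3.

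Within pit-like cells Shh had 29.3 CPM in the untreated library, 41.4 CPM at day 1, 41.3 CPM at day 3 with AREG and 55.1 CPM at day 3. In parietal-like cells it had 1.97 CPM (25 UMIs), 3.59 CPM (12 UMIs), 1.39 CPM (25 UMIs) and 1.54 CPM (24 UMIs) across the same 4 libraries. The pit-like level was thus 14.9-fold the parietal-like one in the untreated library (interval 9.98 to 23.2), 11.5-fold at day 1 (6.55 to 22.4), 29.8-fold at day 3 with AREG (20.03 to 46.3) and 35.7-fold at day 3 (23.9 to 56.0). The account of parietal cells as the Shh source was therefore not what the RNA counts of these libraries showed. Most listed parietal markers set the parietal-like cells apart. The proton pump genes Atp4a and Atp4b had 13555 and 13114 CPM in untreated parietal-like cells against 164 and 188 CPM in all other untreated epithelial cells. The listed markers Car2 and Hgfac did so little, with 2802 against 2607 CPM and 7.73 against 5.46 CPM in the untreated library. At day 1 both were lower in parietal-like than in other epithelial cells, with 2010 against 3006 CPM and 5.69 against 15.7 CPM. The pit-like cells were marked by the secreted gastrokine Gkn1, with 131944 CPM in untreated pit-like cells against 19128 CPM in all other untreated epithelial cells. Of the other listed pit markers, Gsdma was near absent, with 0 against 0.144 CPM in the untreated library. Psca differed little there, with 10537 against 7879 CPM, and Mucl3 had 1251 against 1237 CPM at day 1.

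The low Shh of parietal-like cells was set beside chief-like cells. In the untreated library parietal-like cells, at 1.97 CPM (interval 1.28 to 2.91), stood above chief-like cells, at 0.335 CPM from 3 UMIs (0.0691 to 0.980). Of the 25 parietal-like UMIs 19 lay in 1 cluster of 877 cells, cluster 12. Its cells were deeper than those of cluster 3, the largest untreated parietal-like cluster, with a median of 4494 against 1568.5 UMIs. The levels were 3.60 CPM in cluster 12 (2.17 to 5.63) and 0.859 CPM in cluster 3 (0.315 to 1.87). At day 3 the classes overlapped, at 1.54 CPM (0.988 to 2.30) in parietal-like and 1.70 CPM (0.551 to 3.96) in chief-like cells. A Shh UMI was found in 0.579% of untreated parietal-like cells (median 1878 UMIs per cell) and in 0.287% of untreated chief-like cells (median 4950 UMIs), and at day 3 in 1.2% of parietal-like cells (median 4166 UMIs) and 1.81% of chief-like cells (median 3056 UMIs). Free RNA can give such counts, and its part was not tested: barcodes with fewer than 50 UMIs, which hold mostly RNA from outside cells, had 8.62 CPM of Shh in the untreated library, 21.6 CPM at day 1, 17.1 CPM at day 3 with AREG and 28.0 CPM at day 3. At day 1 a Shh UMI was found in 3.44% of parietal-like cells (median 6258 UMIs), with too few chief-like cells to set beside it. In pit-like cells a Shh UMI was found in 11.6% of untreated cells, 17.1% at day 1, 10.6% at day 3 with AREG and 16.1% at day 3. After each cell was thinned to 500 UMIs these shares were 2.20%, 1.85%, 1.94% and 2.61%. This order differs from that of the CPM, so none is read from the shares.

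Proliferating-like cells, named from cell cycle genes, also had Shh UMIs. They had 5.46 CPM in the untreated library, 9.77 CPM at day 1, 8.56 CPM at day 3 with AREG and 3.36 CPM at day 3, where only 5 UMIs were counted. At day 1 this class held 159 Shh UMIs, 19.4% of the total; it made up 24.0% of the day 1 epithelial cells and was the deepest of the day 1 classes with at least 50 cells (median 8032 UMIs per cell). Neck-like cells, the mucous cells of the gland neck, had 9 and 6 Shh UMIs at day 3 with AREG and at day 3, or 1.38 and 1.58 CPM. Smaller groups had some too: an unnamed day 1 cluster led by Cym and Bpifb1 had 43 UMIs at 12.3 CPM, day 1 tuft-like cells had 4 UMIs at 14.3 CPM, and endocrine-like cells had 4 UMIs each at day 3 with AREG and at day 3, or 10.7 and 17.4 CPM.

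**Figure D2:**
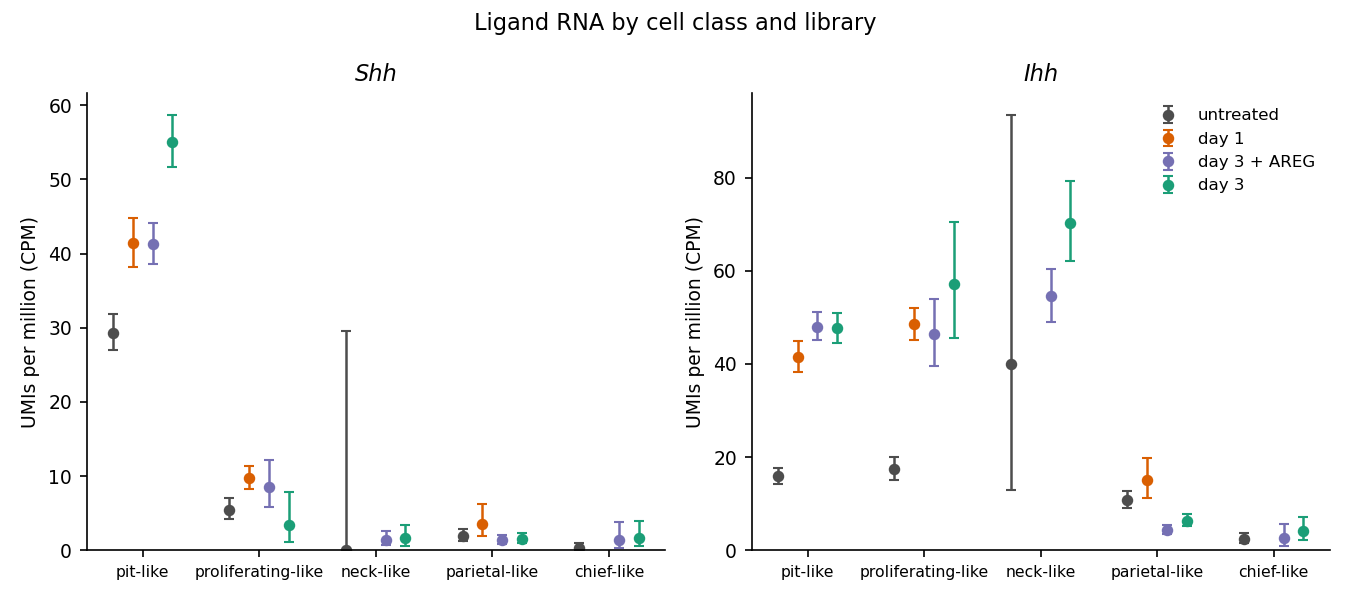
Level of Shh (left) and Ihh (right) in CPM (vertical axes, from 0) in 5 cell classes (horizontal axis), coloured by library, with exact Poisson 95% intervals; classes with fewer than 50 cells in a library are not drawn. Shh stands high in pit-like cells of every library, while Ihh after L635 is higher in pit-like, proliferating-like and neck-like cells than in parietal-like and chief-like cells, and at day 3 is higher in neck-like than in pit-like cells.

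Ihh was spread over more of the epithelium than Shh. Over all epithelial cells it had 13.7 CPM in the untreated library (846 UMIs, interval 12.8 to 14.7), 44.2 CPM at day 1 (1709 UMIs, 42.2 to 46.4), 31.2 CPM at day 3 with AREG (1619 UMIs, 29.7 to 32.8) and 31.6 CPM at day 3 (1330 UMIs, 30.0 to 33.4). Day 1 was highest and untreated lowest, and the 2 day 3 libraries overlapped. Pit-like cells held 37.5% of the untreated Ihh UMIs, 35.1% at day 1, 61.9% at day 3 with AREG and 64.3% at day 3. Barcodes with fewer than 50 UMIs had 15.2 CPM of Ihh in the untreated library, 49.3 CPM at day 1, 33.2 CPM at day 3 with AREG and 40.5 CPM at day 3. These levels rest on 51, 533, 290 and 491 UMIs and were given no interval. As point values they were above those of all epithelial cells in every library. The part of free RNA in the spread over classes was not tested.

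In pit-like cells Ihh had 15.9 CPM in the untreated library, 41.5 CPM at day 1, 48.0 CPM at day 3 with AREG and 47.7 CPM at day 3. Proliferating-like cells gave 17.4, 48.5, 46.4 and 57.1 CPM in the same order, so the pit-like level was 0.914-fold the proliferating-like one in the untreated library (interval 0.763 to 1.10), 0.856-fold at day 1 (0.769 to 0.954), 1.04-fold at day 3 with AREG (0.878 to 1.23) and 0.835-fold at day 3 (0.668 to 1.06). The interval lay below no difference at day 1 and included it in the other 3 libraries. An unnamed cluster of 1952 untreated cells, led by Pga5 and A4gnt, had 22.3 CPM of Ihh in the untreated library (165 UMIs, interval 19.0 to 25.9). That was above the untreated pit-like and proliferating-like levels. Neck-like cells, too few at day 1 to be read, had 54.5 CPM at day 3 with AREG and 70.3 CPM at day 3, where the pit-like level was 0.679-fold the neck-like one (0.591 to 0.781). Parietal-like cells were lower, at 10.7, 14.97, 4.39 and 6.36 CPM, and chief-like cells, the zymogenic cells of the gland base, had 2.35 CPM in the untreated library, 2.62 CPM at day 3 with AREG and 4.07 CPM at day 3. Most of the untreated parietal-like Ihh lay in 1 of the 5 parietal-like clusters: cluster 12, with 877 untreated cells, had 20.7 CPM, against 3.72 CPM in cluster 3, with 3238 untreated cells. The cells of cluster 12 were deeper, with a median of 4494 against 1568.5 UMIs, and no doublet caller was run.

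Most pit-like cells with a UMI of 1 ligand had none of the other. Pit-like cells had a median of 1417 UMIs at day 1 and 2613.5 at day 3. At such depths and at these levels most cells give no UMI of a ligand, so this does not place the ligands in different cells. Among pit-like cells with a Shh UMI, 11.1% also had an Ihh UMI in the untreated library, where 6.64% of all pit-like cells had one. The shares were 39.5% against 19.4% at day 1, 19.5% against 13.6% at day 3 with AREG, and 19.9% against 15.2% at day 3. Cells with both were 55, 139, 134 and 147. In each library the share was higher among cells with a Shh UMI, but deeper cells have more of both genes and the shares were not matched on depth.

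Hhat and Disp1, which act in the ligand-producing cell, were not limited to the class that held Shh. Hhat had 2.08 CPM in the untreated library (128 UMIs), 2.80 CPM at day 1 (108 UMIs), 2.89 CPM at day 3 with AREG (150 UMIs) and 3.95 CPM at day 3 (166 UMIs, of which 11 were in 1 cell). In pit-like cells Hhat had 0.551 CPM in the untreated library, from 11 UMIs, and 2.42, 2.64 and 4.02 CPM at day 1, day 3 with AREG and day 3. Untreated pit-like cells were thus the lowest of the large classes for Hhat: parietal-like cells had 2.13 CPM and chief-like cells 3.13 CPM there. Barcodes with fewer than 50 UMIs had more Hhat than cells in every library as point values (5.35, 6.47, 6.19 and 6.94 CPM). These rest on 18, 70, 54 and 84 UMIs and were given no interval. The part of free RNA in the cells' few counts was not tested.

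Disp1 was spread over all large classes. It had 10.0 CPM in the untreated library (618 UMIs), 18.4 CPM at day 1 (712 UMIs), 11.1 CPM at day 3 with AREG (578 UMIs) and 12.7 CPM at day 3 (532 UMIs). At day 3 it had 14.6 CPM in pit-like, 12.1 CPM in parietal-like, 12.4 CPM in neck-like and 11.4 CPM in proliferating-like cells, with overlapping intervals, and 5.09 CPM in chief-like cells. At day 1 proliferating-like cells stood highest with 21.4 CPM (interval 19.3 to 23.8), above pit-like cells with 15.7 CPM (13.7 to 17.9). Barcodes with fewer than 50 UMIs had 7.14 CPM of Disp1 in the untreated library, below the cells. They had 19.6 CPM at day 1, 14.1 CPM at day 3 with AREG and 13.3 CPM at day 3, above the cells. These are point values from 24, 212, 123 and 161 UMIs in the 4 libraries and were given no interval. The part of free RNA in the spread of Disp1 was not tested.

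Ptch1 was present at a low level in every large class. Over all epithelial cells it had 3.12 CPM in the untreated library (192 UMIs), 7.92 CPM at day 1 (306 UMIs), 6.44 CPM at day 3 with AREG (334 UMIs) and 6.25 CPM at day 3 (263 UMIs); only the untreated interval, 2.69 to 3.59, stood apart from all others. In pit-like cells it had 2.05, 6.23, 5.80 and 5.58 CPM in the untreated, day 1, day 3 with AREG and day 3 libraries. In parietal-like cells the 4 levels were 5.60, 5.69, 6.99 and 5.98 CPM, and their intervals overlapped. The parietal-like cells thus held 37.0% of the untreated Ptch1 UMIs and 6.21% of those at day 1, where parietal-like cells were 7.78% of epithelial cells against 31.2% in the untreated library. As point values, barcodes with fewer than 50 UMIs had more Ptch1 than epithelial cells in every library. They had 4.46 CPM in the untreated library, 8.05 CPM at day 1, 10.2 CPM at day 3 with AREG and 9.41 CPM at day 3. These rest on 15, 87, 89 and 114 UMIs and were given no interval. The part of free RNA in the low Ptch1 counts of each class was not tested.

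Hhip had the lowest counts of the 6 genes. It had 0.779 CPM in the untreated library (48 UMIs, interval 0.575 to 1.03), 1.76 CPM at day 1 (68 UMIs, 1.37 to 2.23), 1.52 CPM at day 3 with AREG (79 UMIs, 1.2 to 1.90) and 2.64 CPM at day 3 (111 UMIs, 2.17 to 3.18). Pit-like cells held 45.8%, 44.1%, 59.5% and 71.2% of these UMIs, with 1.10, 2.08, 2.25 and 4.41 CPM. At day 3 most pit-like Hhip lay in the pit-like cluster that was also highest for Shh, cluster 2, with 66 of 79 UMIs. The day 1 value depends on which cells count as epithelial. A cluster of 154 day 1 cells, led by Nbea and Lsamp and left out as not epithelial, held 44 Hhip and 44 Hhat UMIs. With all called cells Hhip had 2.87 CPM and Hhat 3.86 CPM at day 1.

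Day 1 against untreated is the acute injury comparison. Ihh was 3.22-fold higher at day 1 (log2 ratio 1.69, interval 1.57 to 1.81), Ptch1 2.54-fold (1.35, 1.08 to 1.61) and Hhip 2.26-fold (1.18, 0.62 to 1.74). These 3 of the 6 genes were past a 2-fold difference, taken on CPM plus 0.1 among genes with at least 20 UMIs over both libraries. Beside them, 24.1% of all 18190 genes so compared were that much higher and 4.83% that much lower. Shh was 1.90-fold higher (log2 ratio 0.93, 0.78 to 1.07), Disp1 1.84-fold (0.88, 0.72 to 1.03) and Hhat 1.35-fold (0.43, 0.04 to 0.81). Read from the median gene, Ihh stood 1.2 above it, Ptch1 0.84, Hhip 0.60, Shh 0.44 and Disp1 0.39 above, and Hhat 0.07 below, on the log2 scale. When CPM were taken without mitochondrial genes, ribosomal protein genes and the next 20 in abundance, the median gene was 0.16 higher at day 1. Only Ihh then stayed past 2-fold, at a log2 ratio of 1.34, with Ptch1 at 0.99 and Hhip at 0.80. Without the 5% of cells with most UMIs, Shh was past 2-fold too, at 1.12.

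**Figure D3:**
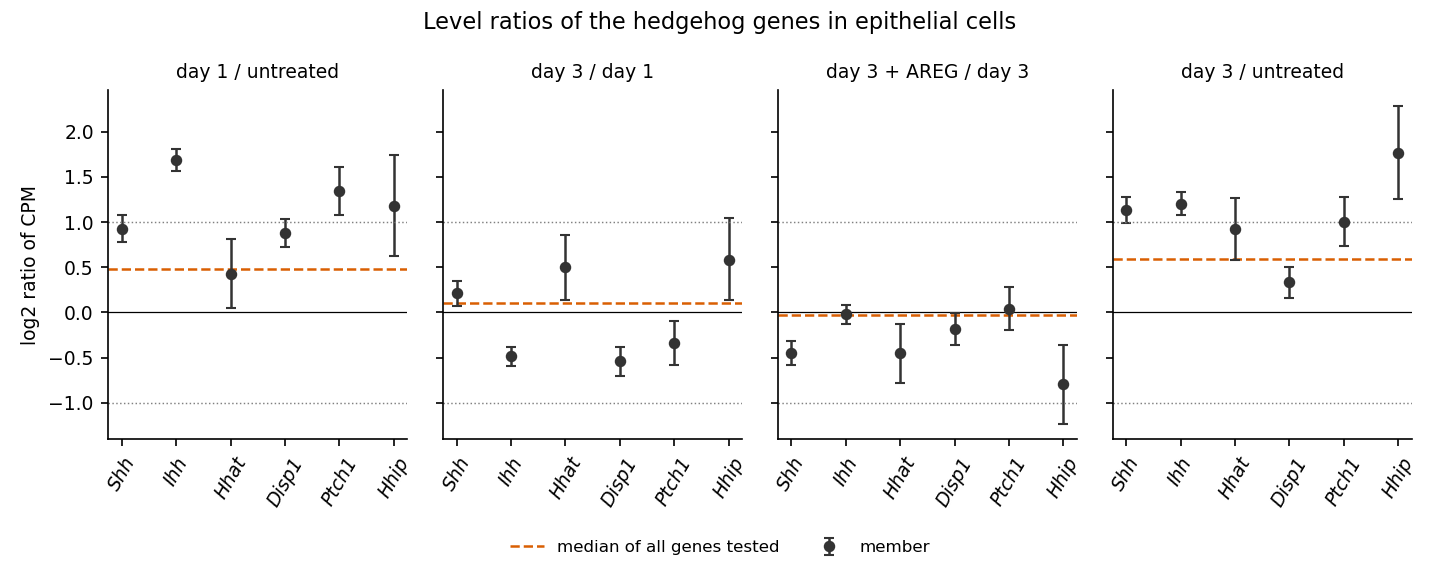
Log2 ratio of CPM for the 6 hedgehog genes (vertical axis) in the 4 comparisons (panels), with conditional exact 95% intervals for counting error. The dashed line is the median of all genes tested, computed on CPM plus 0.1, and dotted lines mark a 2-fold difference; Ihh, Ptch1 and Hhip lie above the upper dotted line at day 1, no gene lies beyond either dotted line in day 3 against day 1 or in AREG against day 3, and Disp1 lies below the median at day 3 against untreated.

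On CPM plus 0.1 within pit-like cells the same comparison gave 3 of 6 genes past 2-fold at day 1, Ihh, Ptch1 and Hhat, where 30.1% of genes were that much higher and 2.14% that much lower, and the median gene was 0.66 higher on the log2 scale. Ihh had 41.5 CPM at day 1 against 15.9 CPM in untreated cells, Ptch1 6.23 against 2.05 CPM and Hhat 2.42 against 0.551 CPM. Shh, with 41.4 against 29.3 CPM (log2 ratio 0.49), stood below the median gene. In proliferating-like cells Ihh had 48.5 CPM at day 1 against 17.4 CPM in untreated cells, a log2 ratio of 1.48 beside a median gene of 0.64, and in parietal-like cells it had 14.97 against 10.7 CPM, a log2 ratio of 0.48 beside 0.31. The pit-like cells of the libraries were largely different clusters: 95.9% of those at day 1 were in cluster 8 (led by Rep15 and Muc5ac) and 68.2% of the untreated ones in cluster 4 (led by Lypd8l and Gkn1). Library and cluster cannot be told apart in this contrast. Among the 2056 day 1 pit-like cells, 747 shallow cells were split off at a finer clustering as squamous-like (756 cells in all, led by Krt17 and Krt6a, median 720 UMIs). They had 19.3 CPM of Shh and 71.1 CPM of Ihh, and without them the pit-like levels were 42.4 and 40.03 CPM.

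The promoters of the 3 genes past 2-fold at day 1 are shown because these genes include the classical pathway targets Ptch1 and Hhip. The 250 bases before the annotated start of each gene are from RefSeq on build GRCm38.p6, an older build than the one the counts were made on. They run 5′ to 3′, each gene lies on the minus strand, and capitals mark the GC box GGGCGG on either strand. They lie at chr1:74951673-74951922 for Ihh, chr13:63565736-63565985 for Ptch1 and chr8:80058009-80058258 for Hhip.
Ihh: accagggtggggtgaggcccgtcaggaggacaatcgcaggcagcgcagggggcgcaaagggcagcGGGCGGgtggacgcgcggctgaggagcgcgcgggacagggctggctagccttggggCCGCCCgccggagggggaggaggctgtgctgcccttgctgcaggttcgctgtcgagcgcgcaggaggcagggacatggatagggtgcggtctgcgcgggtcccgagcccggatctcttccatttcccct
Ptch1: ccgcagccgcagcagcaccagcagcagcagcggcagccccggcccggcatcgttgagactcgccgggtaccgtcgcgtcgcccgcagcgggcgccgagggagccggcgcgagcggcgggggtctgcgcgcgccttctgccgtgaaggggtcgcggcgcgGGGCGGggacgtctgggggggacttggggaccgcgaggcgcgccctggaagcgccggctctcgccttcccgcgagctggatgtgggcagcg
Hhip: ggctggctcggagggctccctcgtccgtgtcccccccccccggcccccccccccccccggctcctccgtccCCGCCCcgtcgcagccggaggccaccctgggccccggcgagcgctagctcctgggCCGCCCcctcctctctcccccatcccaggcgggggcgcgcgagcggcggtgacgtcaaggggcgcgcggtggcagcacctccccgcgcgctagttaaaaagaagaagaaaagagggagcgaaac
Their GC content was 72.0% for Ihh, 78.4% for Ptch1 and 76.0% for Hhip, with 24, 41 and 28 CG dinucleotides, and was not compared with that of all promoters. GC boxes numbered 2, 1 and 2, the window of Hhat also held 1 and the 2 listed starts of Disp1 none, and 32.7% of the 32851 mouse promoters in the table hold at least 1 in the same window. The Gli motif GACCACCCA, searched on both strands, was in none of the windows of Ihh, Ptch1, Hhip, Disp1 and Hhat and in 0.225% of all promoters. These letters are not in these windows, and nothing follows about Gli binding elsewhere. The promoter of Shh was not analysed here.

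Day 3 against day 1 is the recovery comparison, which shares the day 1 library with the comparison above. None of the 6 genes was past 2-fold, where 9.2% of 18394 genes were that much higher at day 3 and 6.53% that much lower. Ihh had 31.6 CPM at day 3 against 44.2 CPM at day 1 (log2 ratio -0.48, interval -0.59 to -0.38), Disp1 12.7 against 18.4 CPM (-0.54, -0.71 to -0.38) and Ptch1 6.25 against 7.92 CPM (-0.34, -0.58 to -0.10). Shh had 24.5 CPM at day 3 against 21.2 CPM at day 1 (0.21, 0.08 to 0.34) and Hhat 3.95 against 2.80 CPM (0.50, 0.14 to 0.86). Hhip had 2.64 CPM at day 3 against 1.76 CPM at day 1 (0.59, 0.14 to 1.04), but with all called cells its log2 ratio was -0.12. In pit-like cells Hhip was past 2-fold, with 4.41 CPM at day 3 against 2.08 CPM at day 1 (79 and 30 UMIs), 1 of 6 genes, where 10.4% of genes were that much higher and 3.41% that much lower. Ihh in pit-like cells was 47.7 CPM at day 3 against 41.5 CPM at day 1, and the proliferating-like cells, which held 46.2% of Ihh UMIs at day 1, were 2.51% of epithelial cells at day 3 against 24.0% at day 1.

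AREG at day 3 against day 3 alone is the comparison of the added EGF receptor ligand, and shares the day 3 library with the comparison above. None of the 6 genes was past 2-fold, where 0.503% of 18874 genes were that much higher with AREG and 1.71% that much lower. Shh had 18.0 CPM with AREG against 24.5 CPM at day 3 (log2 ratio -0.45, interval -0.58 to -0.32), Hhip 1.52 against 2.64 CPM (-0.79, -1.23 to -0.37) and Hhat 2.89 against 3.95 CPM (-0.45, -0.78 to -0.12). The intervals of these 3 genes lay below both 0 and the median gene, which was at -0.03. Ihh, with 31.2 against 31.6 CPM (-0.02, -0.12 to 0.09), and Ptch1, with 6.44 against 6.25 CPM (0.04, -0.20 to 0.28), had intervals that included no difference, and Disp1 had 11.1 against 12.7 CPM (-0.18, -0.36 to -0.01). Within classes Ihh was lower with AREG in neck-like cells, with 54.5 against 70.3 CPM (-0.37, -0.60 to -0.13), and in parietal-like cells, with 4.39 against 6.36 CPM (-0.54, -0.98 to -0.10), and was 48.0 against 47.7 CPM in pit-like cells (0.01, -0.12 to 0.14).

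The Shh difference was set beside that within single pit-like clusters. In all pit-like cells none of the 6 genes was past 2-fold, where 1.8% of genes were that much higher with AREG and 4.19% that much lower. Shh had 41.3 CPM with AREG against 55.1 CPM at day 3 in them, and 50.7% of the AREG pit-like cells were in cluster 0 (led by Slc5a5 and Gkn1) against 30.6% at day 3, and 28.0% were in cluster 2 (led by Lypd8 and Duox2) against 50.3% at day 3. In cluster 2 Shh had 67.7 CPM with AREG against 69.9 CPM at day 3 (log2 ratio -0.05, interval -0.21 to 0.11), in cluster 6 31.3 against 32.6 CPM (-0.06, -0.94 to 0.85) and in cluster 4 51.0 against 56.2 CPM (-0.14, -0.70 to 0.44). In cluster 0 it had 20.7 against 26.8 CPM (-0.37, -0.68 to -0.06). The interval of cluster 2 lay above the -0.42 of all pit-like cells, whereas those of clusters 0, 4 and 6 held that value, and with their counts clusters 4 and 6 do not tell it from no difference. Shh was therefore more than 2-fold higher in cluster 2 than in cluster 0 in both libraries, and the share of pit-like cells in cluster 2 was the lower with AREG. Clusters were drawn on other genes, with all hedgehog genes left out.

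**Figure D4:**
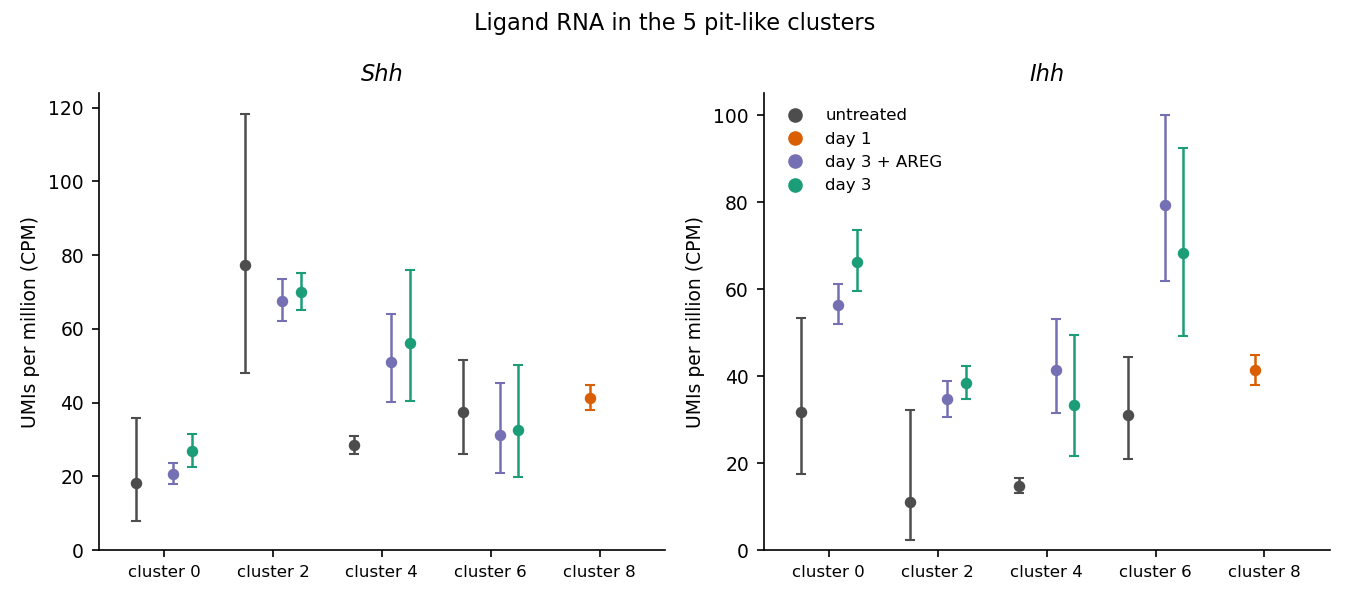
Level of Shh (left) and Ihh (right) in CPM (vertical axes, from 0) in the 5 pit-like clusters (horizontal axis), coloured by library, with exact Poisson 95% intervals. At day 3 with and without AREG, Shh is highest in cluster 2, at 67.7 and 69.9 CPM, and Ihh is lower there than in cluster 0.

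Ihh ran the other way between these clusters. It had 34.6 CPM in cluster 2 with AREG against 38.4 CPM at day 3, and 56.4 CPM in cluster 0 with AREG against 66.3 CPM at day 3 (log2 ratio -0.23, interval -0.42 to -0.04). Hhip, like Shh, was higher in cluster 2, with 3.5 CPM with AREG against 5.95 CPM at day 3 in cluster 2 (log2 ratio -0.76, interval -1.46 to -0.11) and 1.05 against 1.29 CPM in cluster 0, from 11 and 7 UMIs. Unlike Shh, Hhip was thus lower with AREG within cluster 2 as well.

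Day 3 against untreated shares its libraries with the comparisons above and shows how far the recovering epithelium was from the untreated one. Shh was 2.20-fold higher at day 3 (log2 ratio 1.14, interval 0.99 to 1.28), Ihh 2.30-fold (1.2, 1.08 to 1.33) and Hhip 3.39-fold (1.76, 1.26 to 2.28). These 3 of 6 were past 2-fold, where 24.5% of 18739 genes were that much higher and 2.27% that much lower. Ptch1 was 2.01-fold higher on CPM alone and just under 2-fold on CPM plus 0.1, Hhat was 1.90-fold higher and Disp1 1.26-fold. On the log2 scale Hhip stood 1.05 above the median gene, Ihh 0.61, Shh 0.54, Ptch1 0.39 and Hhat 0.31 above, and Disp1 0.26 below. Without the mitochondrial, ribosomal protein and 20 most abundant genes, only Hhip stayed past 2-fold, at 1.39, with Shh at 0.81 and Ihh at 0.88. In pit-like cells Shh had 55.1 CPM at day 3 against 29.3 CPM in untreated cells, a log2 ratio of 0.91 that was close to the median gene of that class, 0.88, whereas Ihh was at 1.58, Hhip at 1.91 and Hhat at 2.66. In that class 4 of 6 genes were past 2-fold, as were 43.3% of genes, and 1.04% were that much lower. Most pit-like cells were again in different clusters, 50.3% of those at day 3 in cluster 2 and 68.2% of the untreated ones in cluster 4. Within cluster 4, which held 4.33% of the day 3 pit-like cells, Shh had 56.2 CPM at day 3 against 28.4 CPM in untreated cells (log2 ratio 0.98, 0.49 to 1.44). The log2 ratio of Shh was 0.56 in cluster 0 (-0.46 to 1.80), -0.15 in cluster 2 (-0.77 to 0.55) and -0.20 in cluster 6 (-1.06 to 0.63). These 3 of the 4 intervals included no difference and all 4 overlapped, so the signs do not tell the clusters apart in direction. Ihh was higher at day 3 in all 4 clusters, with log2 ratios of 1.06 in cluster 0 (0.29 to 1.94), 1.80 in cluster 2 (0.24 to 4.08, from 3 untreated UMIs), 1.18 in cluster 4 (0.53 to 1.77) and 1.14 in cluster 6 (0.43 to 1.86). The median gene was not taken within single clusters. All 4 Ihh intervals held 0.88, the median gene of all pit-like cells, so they do not set Ihh apart from that median. Of the Shh intervals, those of clusters 0 and 4 held 0.88 and those of clusters 2 and 6 lay below it.

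In the untreated library Boc, Smo and Gli1 were higher in chief-like than in pit-like cells, while Ptch1 and Hhip were not: untreated chief-like cells had 1.45 CPM of Ptch1 and 0.223 CPM of Hhip, against 2.05 and 1.10 CPM in untreated pit-like cells. Boc, a coreceptor that helps ligand bind Ptch1, had 98.0 CPM in untreated chief-like cells, which held 53.4% of its UMIs, and 69.1 CPM in untreated unnamed cells (led by Pga5 and A4gnt), against 1.85 CPM in untreated pit-like cells. At day 3 Boc had 61.7 CPM in chief-like and 36.6 CPM in neck-like cells. Smo, the signal transducer, had 31.4 CPM in untreated chief-like cells and 1.70 CPM in untreated pit-like cells, and 30.4 and 25 CPM in neck-like cells at day 3 with AREG and at day 3. Gli1, whose transcription is the usual readout of the pathway, had 58 UMIs in the whole untreated epithelium, 35 of them in chief-like and 16 in unnamed cells, and 11 of its 16 UMIs at day 3 were in chief-like cells. Gli2 and Gli3, the other Gli factors, had 111 and 112 UMIs in the untreated library, of which chief-like cells held 42 and 48. Dhh, the third ligand, had 1 to 3 UMIs per library, and Gas1 had 4 to 6.

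**Figure D5:**
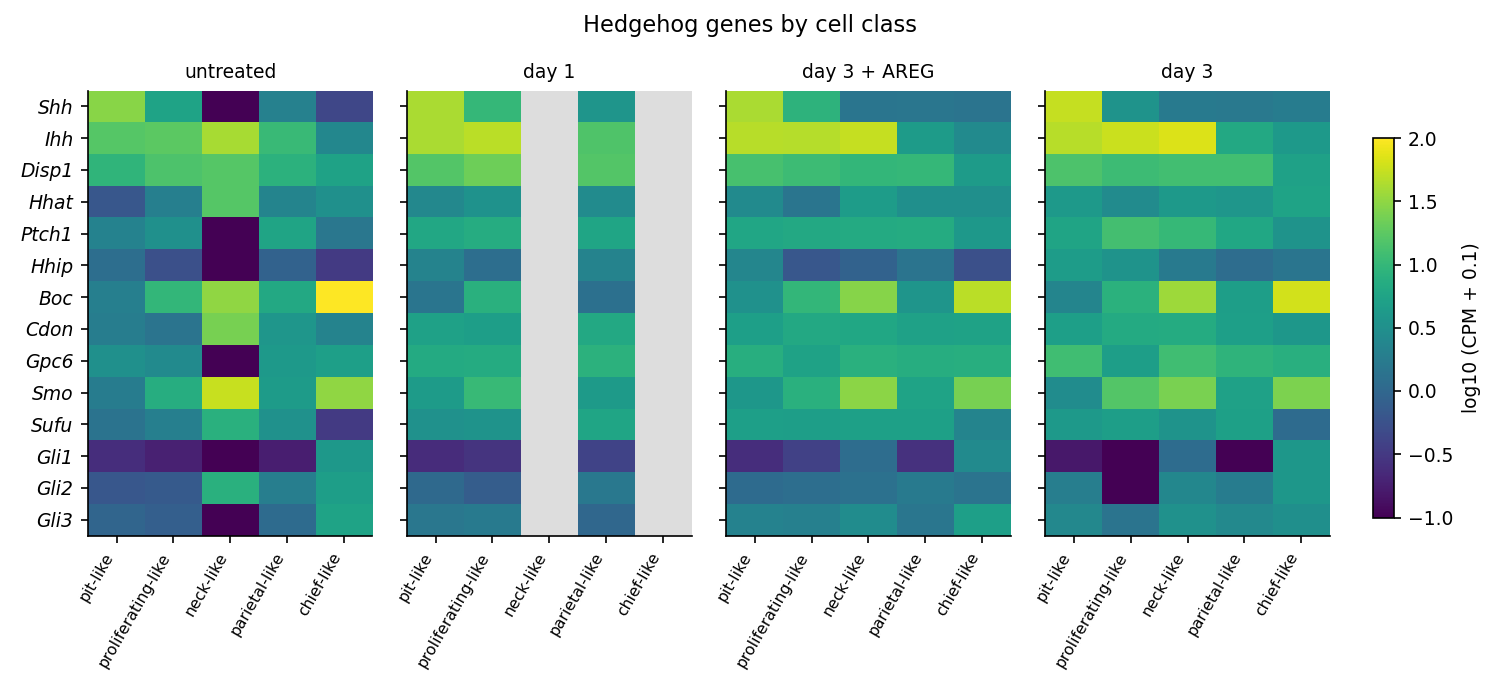
Level of 14 hedgehog genes (rows) in 5 cell classes (columns) in each library (panels), coloured by log10 of CPM plus 0.1; grey marks classes with fewer than 50 cells. Read along each row, Shh is highest in pit-like cells, and Boc and Gli1 are highest in chief-like cells where that class has at least 50 cells.

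Of 46 pathway genes other than cilium genes, listed with earlier results of these data known, 38 could be compared at day 1 against untreated. At day 1 12 were past 2-fold higher and 4 lower, 31.6% and 10.5%, beside 24.1% and 4.83% of all genes, and their median log2 ratio was 0.67 beside 0.48. Without the most abundant genes in the scale the counts were 4 and 4, beside 13.1% and 8.62% of all genes. Apart from Ihh, Ptch1 and Hhip, the 12 included the cell-surface protease Adam10, the coreceptor Cdon, the glypican Gpc6, the kinases Gsk3b, Csnk1a1 and Grk2 and the Smo adaptor Arrb2, which had 20.3 CPM at day 1 against 2.94 CPM in untreated cells. Evc2, a cilium protein of the pathway, and Stk36, which has fewer than 50 UMIs, complete the count. The 4 lower ones were Boc, Gli1, Disp2 and Mycn, the last named only to complete the count.

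The lower Boc and Gli1 moved together with fewer chief-like cells and fewer cells of the unnamed cluster led by Pga5 and A4gnt. The part of either was not tested. Boc had 6.08 CPM at day 1 against 26.6 CPM in untreated epithelium (log2 ratio of CPM plus 0.1, -2.11), and Gli1 0.207 CPM from 8 UMIs against 0.942 CPM from 58. Chief-like cells numbered 4 at day 1 against 1045 in the untreated library, and the 9 chief markers summed to 20286 CPM at day 1 against 90391 CPM. The unnamed cluster led by Pga5 and A4gnt had 3 cells at day 1 against 1952 in the untreated library. Within proliferating-like cells Boc had 7.99 CPM at day 1 against 9.6 CPM in untreated cells (log2 ratio -0.27, interval -0.64 to 0.11). Within pit-like cells it had 1.38 against 1.85 CPM (-0.42, -1.28 to 0.40). Both intervals included no difference, but both lay below the median gene of the class, 0.64 in proliferating-like and 0.66 in pit-like cells. Within parietal-like cells Boc was lower at day 1, with 1.197 CPM from 4 UMIs against 6.31 CPM from 80 (log2 ratio -2.40, interval -4.31 to -0.99), so Boc was lower within a class as well. Summed over the epithelium, fewer cells of these kinds and less RNA per cell cannot be told apart. The 4 chief-like cells and the 3 cells of the unnamed cluster at day 1 are too few to read.

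In the other comparisons fewer pathway genes differed. Day 3 against day 1 had 2 higher (Disp2 and Gpc3) and 2 lower (Arrb2 and Evc2) of 36, beside 9.2% and 6.53% of all genes. AREG against day 3 had none of 37 in either direction, and the median of these genes was -0.06 beside -0.03. Day 3 against untreated had 10 higher and 3 lower of 37, beside 24.5% and 2.27%. Beyond the members the higher ones were Adam10, Cdon, Gpc6, the Gli inhibitor Sufu, Gsk3b, Grk2 and Prkaca, the catalytic subunit of the kinase that restrains Gli factors. The lower ones were Boc, Gli1 and Mycn. Without the most abundant genes in the scale the day 3 counts against untreated were 3 higher and 3 lower, beside 11.9% and 4.59%. Boc had 10.6 CPM at day 3 against 26.6 CPM in untreated cells.

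Over the 22 class and library sums with at least 50 cells, the genes whose log2 (CPM + 1) was most like that of Shh were Tspan2 (Pearson r 0.90), Rep15 (0.90), Ugt1a7c (0.88), Ly6g6e (0.87) and Soat2 (0.86), among 12922 genes. For Ihh they were Galnt12 (0.95), Galnt7 (0.93), Foxq1 (0.93), Cpeb1 (0.92) and Pqlc3 (0.92). Shh and Ihh themselves had r 0.45, Shh and Hhip 0.46, and Ihh and Disp1 0.68. The sums share 4 libraries and differ in depth, so these are descriptions only. Genes of 1 cell class are alike by that alone.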

How the data were processed

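The authors deposited unnormalised UMI counts for 4 libraries of dissociated corpus epithelium (PIPseq T20 3' capture, 25000 cells loaded, per the labels' protocols), unfiltered, in whole numbers. Per the submitters' processing notes, mm39 (GRCm39) was used; aligner and counter are not given in the sources used. The files list 32227 genes with 27 repeated symbols, of which the first entry was used. A barcode was a cell with at least 500 UMIs, 200 genes and at most 50% mitochondrial UMIs. No doublet caller was run; an alternative left out the 5% of cells with most UMIs.

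All cells were clustered together (scanpy 1.11.5, leidenalg 0.10.2; 10000 counts per cell, 2000 variable genes without mitochondrial, ribosomal protein, haemoglobin and hedgehog genes, 40 components, 15 neighbours, resolution 1). Clusters were named by listed markers, at least 3 higher than in clusters of other classes, at least 1 in the top 50 genes and more own than other-class markers in the top 10; the scoring was set after the data were seen. Epithelial cells are those of clusters whose best class is epithelial.

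Counts were summed and scaled to CPM, with exact Poisson intervals, Clopper-Pearson intervals for shares and conditional exact intervals for ratios; all cover counting error only. The 2-fold rule used CPM + 0.1 and at least 20 UMIs over both libraries. UMIs per gene are not scaled to length, so levels are not compared between genes. Named pathway genes were those past 2-fold with at least 50 UMIs over a pair of libraries, and the head genes of the pathway. The members and lists were chosen with earlier results of these data known.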

Additional observations from a re-analysis of the deposited data

How the results depend on the processing

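No paired analysis was possible because each group is 1 library. The 6 genes' ratios kept their direction under all 36 alternative values each for Shh, Ihh, Disp1 and Hhat, under 34 for Hhip and 35 for Ptch1. Without the 5% of cells with most UMIs, the Shh log2 ratio was 1.12 at day 1 against untreated, -0.61 with AREG against day 3 and 1.42 at day 3 against untreated, and pit-like cells held 89.6% of untreated Shh UMIs. With all barcodes, Shh was at 1.28 at day 3 against untreated, and Ihh at 1.81 at day 1 and 1.40 at day 3 against untreated. With CPM taken without mitochondrial genes, ribosomal protein genes and the next 20 in abundance, Shh was at 0.58 and 0.81 and Ihh at 1.34 and 0.88 at day 1 and day 3 against untreated. There 4 and 3 pathway genes were higher, beside 13.1% and 11.9% of all genes. At clustering resolution 0.5 the pit-like share of Shh UMIs was 81.1% in untreated, 0.49% at day 1, where nearly all day 1 pit-like cells lost that name, 84.5% with AREG and 92.6% at day 3; at resolution 2 it was 87.8% with AREG. With a pseudocount of 1 CPM, 7 pathway genes were higher and 1 lower at day 1 against untreated (15.5% and 2.25% of all genes). The counts were 0 higher and 1 lower at day 3 against day 1 (4.03% and 4.30% of all genes), and 7 higher and 1 lower at day 3 against untreated (12.0% and 1.02% of all genes). At 1.5-fold, 20 were higher at day 1 and 20 at day 3 against untreated, where 44.0% and 50.1% of all genes were. At that fold 6 were higher and 4 lower at day 3 against day 1, beside 21.7% and 13.9% of all genes. With AREG against day 3, 1 was higher and 3 lower, beside 2.85% and 8.72%. With at most 20% mitochondrial UMIs, 1 was higher with AREG against day 3 at 2-fold, beside 0.506% of all genes. Causes were not tested. All called cells, and day 1 pit-like cells without squamous-like ones, were alternatives chosen after seeing the data. With 1 library per group, counting error is the only error measured.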

Other observations

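Small groups of cells outside the main classes also held Ihh and Ptch1. A group of 336 cells without a class name, 329 of them from day 1 and led by Cym, Bpifb1 and Dmbt1 with cell cycle genes, had 66.1 CPM of Ihh from 233 UMIs and 17.3 CPM of Ptch1 from 61 UMIs, beside 6.23 CPM of Ptch1 in day 1 pit-like cells. The 53 endothelial-like cells, left out of the epithelium, had 11 Ptch1 UMIs, or 56.7 CPM, in 6 cells, and no Shh UMI. Tuft-like cells, the chemosensory cells of the gland, had 13 Ptch1 UMIs at day 1, or 46.6 CPM, against 2 UMIs and 8.43 CPM in the untreated library, and 17 Ihh UMIs at day 1, or 60.9 CPM, against 2 UMIs and 8.43 CPM.

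The cluster of 154 day 1 cells led by Nbea and Lsamp held 44 Hhip UMIs in 31 cells and 44 Hhat UMIs in 28 cells, 77.8 CPM each, with 4 Ihh and 9 Shh UMIs. No other library had a cell of this cluster.

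Of 12 genes of the primary cilium, on which vertebrate hedgehog signalling depends, all 12 could be compared: 3 were past 2-fold higher at day 1 against untreated (Arl13b, Ofd1 and Tulp3), or 25% beside 24.1% of all genes. At day 3 against untreated Tulp3 was higher, 8.33% beside 24.5%, and B9d1 lower, 8.33% beside 2.27%, with 4.95 CPM at day 3 against 10.7 CPM. Their median log2 ratio at day 1 was 0.41, beside 0.48 for all genes.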
